A study of Homo sapiens with 3 samples.

Results

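Cycloheximide was compared with its solvent DMSO at every adenosine and cytidine of human 28S rRNA that had a mutation signal in both libraries, which left 2200 of the 2492 A and C of the molecule (88.3%). These were 768 of 797 adenosines and 1432 of 1695 cytidines. Of the other 292 positions, 64 had a value in cycloheximide alone, 20 in DMSO alone and 208 in neither. HEK293 cells, a line from human embryonic kidney, were treated for 30 min with 10 µM cycloheximide or with DMSO in matching volume. The cell line label reads HEK293, while the growth protocol names HEK293T/17, a clone that carries the SV40 large T antigen. There was 1 library per treatment, so sizes are described without a test, and a difference between libraries cannot be told apart from a difference between treatments. The remaining library, from cells given 10 µM of the probe RiboBright for 30 min, entered only through the places where it lacks a value, unless its values are named.

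In dimethyl sulfate mutational profiling (DMS-MaP), the reagent methylates the base-pairing face of A and C that is neither paired nor covered, and the reverse transcriptase then writes a wrong base at that place. A high signal therefore marks an accessible nucleotide and a low one a paired or shielded nucleotide. Cycloheximide stops translation elongation. It sits in the E site of the large subunit, the pocket that holds the 3′ end of the deacylated tRNA before it leaves the ribosome. Since 28S rRNA forms the E site, the peptidyl transferase centre and most bridges to the small subunit, the comparison asks which of its nucleotides become less or more accessible in treated cells.

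The nucleotides on which the results turn are printed 5′ to 3′ as RNA in the numbering of the deposited table, which writes T for U. Capitals mark the position that differed between libraries. The segment around C4341 is shown because it holds the largest difference, the next because they are functional loops with smaller differences, and the last because it holds the other called position among those without missing values nearby.
E site, 4326 to 4356, C4341: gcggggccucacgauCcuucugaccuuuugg
helix 69, 3750 to 3770, A3760: ggcgggaguaAcuaugacucu
peptidyl transferase centre, 4538 to 4558, A4548: gucgugagacAgguuaguuuu
P loop, 4191 to 4203, C4193: gaCuggggcggua
expansion segment 27 stretch, 3543 to 3573, C3558: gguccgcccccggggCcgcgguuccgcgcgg

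The table spans 5070 nt, as long as the gene RNA28SN5 in RefSeq's annotation of GRCh38.p14. That copy is on no assigned chromosome there. RNA28SN1, RNA28SN2 and RNA28SN3 lie on chromosome 21 and RNA28SN4 on chromosome 22, and the signal is that of the pool of copies.

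Both libraries had a like range of signal. Adenosines had a median of 0.1325 in DMSO and 0.1395 in cycloheximide (n = 768), and cytidines had 0.077 and 0.082 (n = 1432). The lower and upper quartiles of adenosines were 0.084 and 0.271 in DMSO and 0.088 and 0.267 in cycloheximide. Those of cytidines were 0.037 and 0.211 in DMSO and 0.043 and 0.223 in cycloheximide. The levels of both libraries thus overlapped almost entirely. Cycloheximide was scaled by 0.945 so that the medians of values above 0 were equal, a shift of -0.08 in log2. Ratios are log2 of the scaled cycloheximide signal over the DMSO signal, after 0.0104 was added to each. The scaling therefore moves a ratio by less at low signals, and not at all where cycloheximide is at 0. Signals quoted at single positions are the deposited ones. A position was called if both scaled signals stood 2-fold or more apart and the larger of them reached 0.24025, the 75th percentile of DMSO, which is the level floor. Of the 2200 positions, 588 passed the floor and 1612 did not.

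The rule called 27 of these 588 positions (4.59%). Cycloheximide was higher at 16 (2.72%) and lower at 11 (1.87%). The calls were counted apart by the presence of missing values nearby. A position was taken as well-covered where no A or C within 25 nt lacked a value in any of the 3 libraries. Among the 390 well-covered positions past the floor, 2 were called (0.513%), with C4341 lower (0.256%) and C3558 higher (0.256%). Among the 198 positions near a missing value, 25 were called (12.6%), with 15 higher (7.58%) and 10 lower (5.05%). Both classes are therefore described apart.

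**Figure D1:**
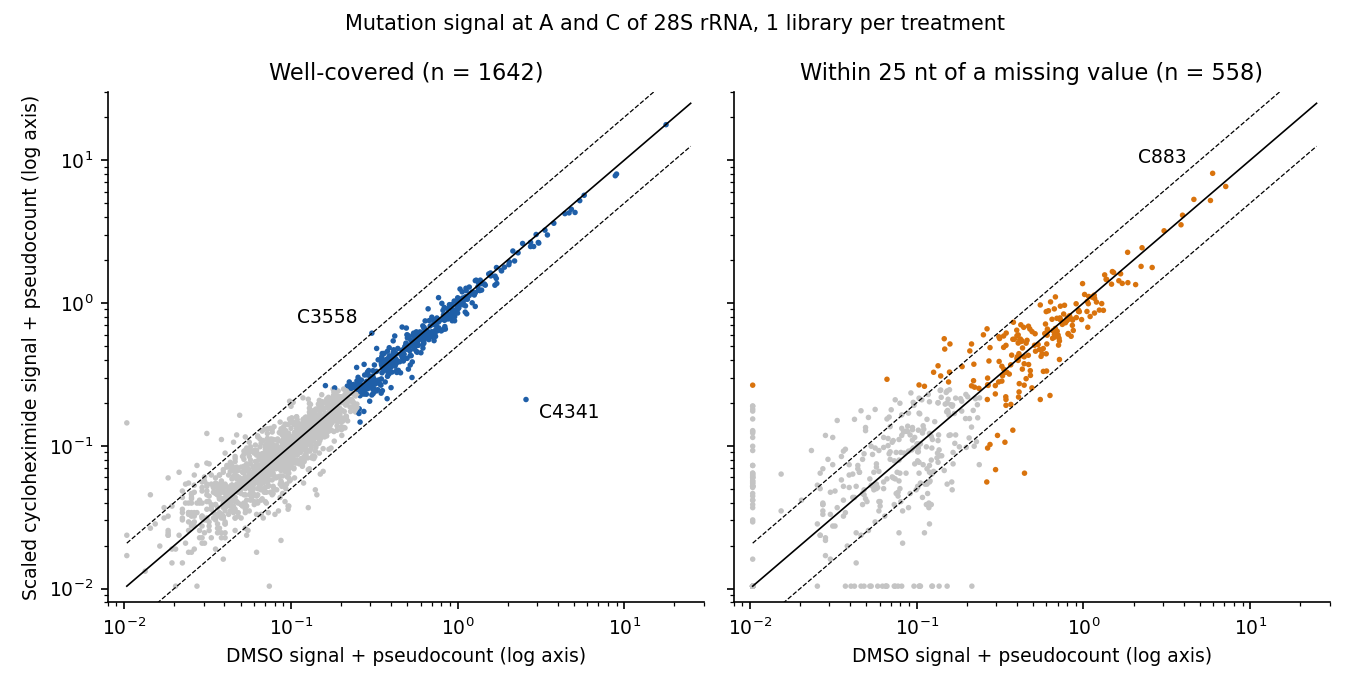
Scaled cycloheximide signal against DMSO signal at each A or C of 28S rRNA, after addition of the pseudocount of 0.0104, on log axes, for 1642 well-covered positions and 558 near a missing value. Coloured points passed the level floor and grey points did not, the solid line marks equal signal and the dashed lines 2-fold; C4341 lies far below the diagonal on the left, and the points on the right are more widely scattered.

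C4341 was the 1 well-covered position with a clearly lower signal in cycloheximide. This cytidine of the E site is where cycloheximide is known to leave a footprint. Its signal was 2.564 in DMSO and 0.212 in cycloheximide, so that 7.82% of the DMSO signal was left after scaling. The log2 ratio was -3.61. RiboBright had 0.146 there, set against the same DMSO library. Among the 961 well-covered cytidines, it was the 12th most reactive in DMSO, at 36.1 times their median. In cycloheximide it ranked 215, at 2.72 times the median. It remained above 77.5% of these cytidines, so the signal in treated cells was low but not at the bottom of the range. The log2 ratio lay between -3.64 and -3.53 under all 14 alternative settings.

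The difference at C4341 was not seen at the 3 neighbours past the floor. The other 12 A and C within 15 nt had a median log2 ratio of -0.03, and their scaled differences lay between -0.092 and 0.026. C4342, which follows it directly, had a low signal in both libraries, at 0.036 in DMSO and 0.032 in cycloheximide. A4339, on its 5′ side, had 0.091 and 0.080. C4335 had the lowest ratio of the 12, from 0.088 to 0.049 (log2 ratio -0.79), and C4333 the highest, from 0.027 to 0.041 (0.39), both far below the floor. The neighbours with a signal past the floor stayed close to their DMSO level. C4327 had 0.980 in DMSO and 1.009 in cycloheximide, A4348 had 0.266 and 0.253, and C4349 had 1.008 and 0.969. In the printed E-site segment C4341 thus stood alone among the 4 A and C past the floor. The neighbours below the floor had little signal to lose, and G and U were not read.

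**Figure D2:**
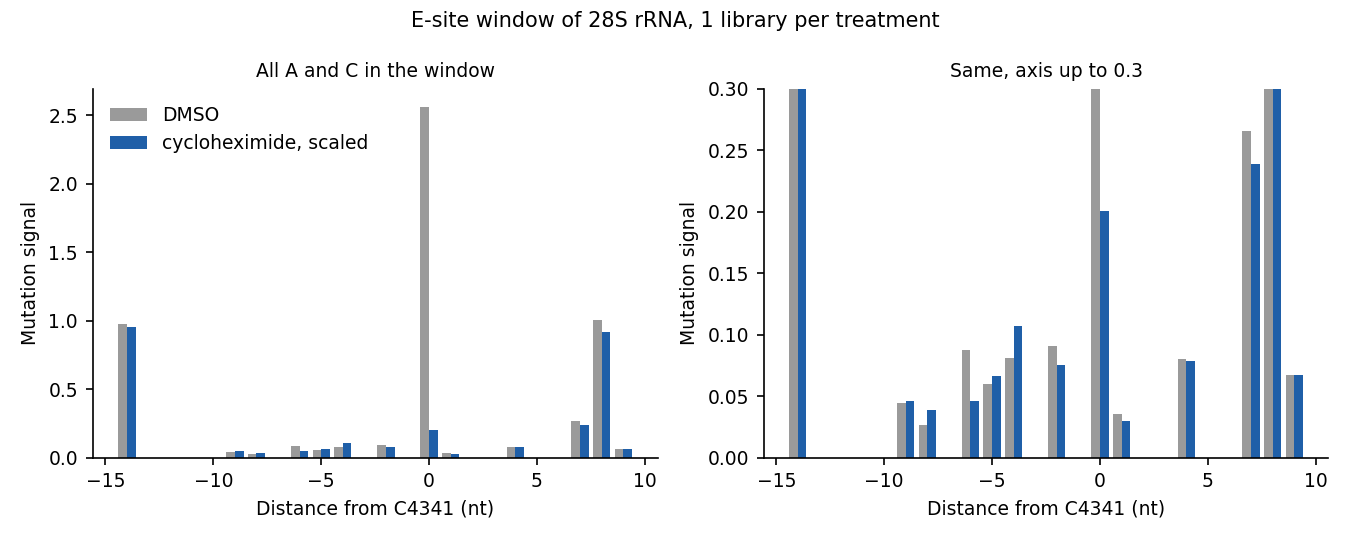
Mutation signal of each A and C within 15 nt of C4341, by distance in nt, in DMSO (grey) and scaled cycloheximide (blue), 1 library each, with the full axis on the left and the axis ended at 0.3 on the right, where taller bars are cut off. At C4341 the bars stand at 2.564 and 0.200, while those at C4327, A4348 and C4349 are of nearly equal height.

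The other well-covered positions matched closely. Of the 390 past the floor, 86.4% lay within 1.25-fold of DMSO, 97.7% within 1.5-fold and 99.5% within 2-fold. The robust SD of their log2 ratios, a scaled median absolute deviation over positions and not over replicates, was 0.180. It was 0.189 for 186 adenosines and 0.170 for 204 cytidines. The match was tighter at higher signal, with a robust SD of 0.227 where the higher signal was below 0.5 (n = 173), 0.165 from 0.5 to 1 (n = 134), 0.120 from 1 to 2 (n = 58) and 0.105 above 2 (n = 25). Of those 25 most reactive positions, C4341 was the 1 that lay outside 1.25-fold. The 10 well-covered positions with the highest DMSO signal had log2 ratios between -0.24 and -0.01. They include A1322, a natural N1-methyladenosine whose methyl group blocks base pairing, at 17.791 in DMSO and 18.729 in cycloheximide. A1964 followed with 8.974 and 8.440, A4523 with 8.820 and 8.216, and C4252 with 5.738 and 5.990.

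Between these bounds, 9 of the 390 positions reached 1.5-fold, 7 of them lower and 2 higher in cycloheximide. This balance depends on the scaling, with 4 lower and 5 higher without scaling, and 4 lower and 6 higher with scaling by the 90th percentile. After C4341, the lowest ratios were at C210, C4693 and A3760. C210 stood at 0.250 in DMSO and 0.144 after cycloheximide (log2 ratio -0.83). Of the 390, it was the uncalled position nearest to 2-fold, though well short of it. C4693 had 0.523 and 0.307 (-0.83). C1280 had 0.264 and 0.173 (-0.66), and C3549 had 0.246 and 0.167 (-0.61). These positions had low DMSO signals, and their scaled differences, at most 0.233 in size, were small beside that of -2.36 at C4341. The remaining positions among the 12 lowest ratios were C1357, A1294, A1934, C2437 and A395, with log2 ratios from -0.58 at C1357 to -0.50 at A395.

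A3760 lies at the tip of helix 69, a hairpin that reaches from the large subunit toward the decoding centre and touches tRNA. Its signal was 0.368 with DMSO and 0.215 with cycloheximide, and the log2 ratio of -0.82 was the fourth lowest of the 390. The adjoining C3761, the most reactive nucleotide of the hairpin, had 1.902 and 1.872 (-0.10). Just below the floor, A3763 had 0.234 and 0.235. Also below it, A3759 had 0.047 and 0.093, and A3766 had 0.076 and 0.144, both higher in cycloheximide. C3767 was lower, at 0.076 and 0.035. The 9 A and C of the window had a median log2 ratio of -0.07, so single nucleotides lay on both sides of equal signal. RiboBright, which is compared with the same DMSO library, had 0.446 at A3760.

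At the peptidyl transferase centre, the catalytic site of the ribosome, the 3 A or C sites examined were A4397, C4398 and A4548. A4548 had 0.389 in DMSO and 0.259 in cycloheximide (log2 ratio -0.65, the sixth lowest of the 390). C4398 had 1.267 and 0.989 (-0.43). A4397 had 0.142 and 0.151 (0.01). None reached 2-fold, and A4548 alone reached 1.5-fold. RiboBright had 0.377 at A4548 and 1.517 at C4398. U4452, U4530 and U4531 carry no value, because dimethyl sulfate was read at A and C.

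In the P loop, which holds the CCA end of the tRNA in the P site, C4193 was higher in cycloheximide, at 1.141 against 0.759 in DMSO (log2 ratio 0.50). This is the sixth highest ratio of the 390, with the largest scaled difference among the 12 highest, at 0.32. The other A and C of the loop stayed near their DMSO signal, with 0.420 and 0.393 at A4192, 0.859 and 0.844 at C4199, and 1.315 and 1.361 at A4203. RiboBright had 0.756 at C4193, close to DMSO. In the A loop, which holds the CCA end in the A site, C4502 was the 1 position past the floor, at 0.418 and 0.387 (-0.19). The 7 A and C of that loop had a median log2 ratio of -0.19.

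The sarcin-ricin loop, a docking site of elongation factors, matched between libraries. A4605 had 0.480 in DMSO and 0.542 in cycloheximide, C4603 had 0.552 and 0.579, A4599 had 0.245 and 0.252, and C4613 had 2.851 and 2.618. The ratios at these 4 positions past the floor ranged from -0.20 to 0.09. Modified bases were also close, with 0.047 and 0.046 at A4220, an N6-methyladenosine, and 0.045 and 0.047 at C3782, a 5-methylcytidine. Both were far below the floor, where little difference could show. C4447, also a 5-methylcytidine, had 0.159 and 0.123 (-0.42), below the floor in both.

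The highest ratio at a well-covered position was at C3558, with 0.296 in DMSO against 0.639 in cycloheximide. Its log2 ratio of 1.004 is just inside the rule. RiboBright had 0.399. The position lies 43 nt from the nearest A or C without a value, in a segment of 90.3% G plus C, and its call is lost with a pseudocount of 20% of the DMSO median, at 3-fold or with a 90th percentile floor. When 50 nt are asked for, it is still called but counts as near a missing value. The next highest were at C3854, with 0.151 and 0.268 (0.71), C3739, with 0.317 and 0.497 (0.55), C2709, with 0.455 and 0.706 (0.54), and A2582, with 0.238 and 0.363 (0.51). C4853, C4365, C4826, C4733, A3711 and A347 complete the 12 highest with C4193, at log2 ratios from 0.48 down to 0.40. C4365 is 24 nt from C4341 and had 0.173 in DMSO and 0.258 in cycloheximide. Cytidines made up 9 of these 12 and 7 of the 12 lowest, against 204 of all 390 well-covered positions past the floor.

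**Figure D3:**
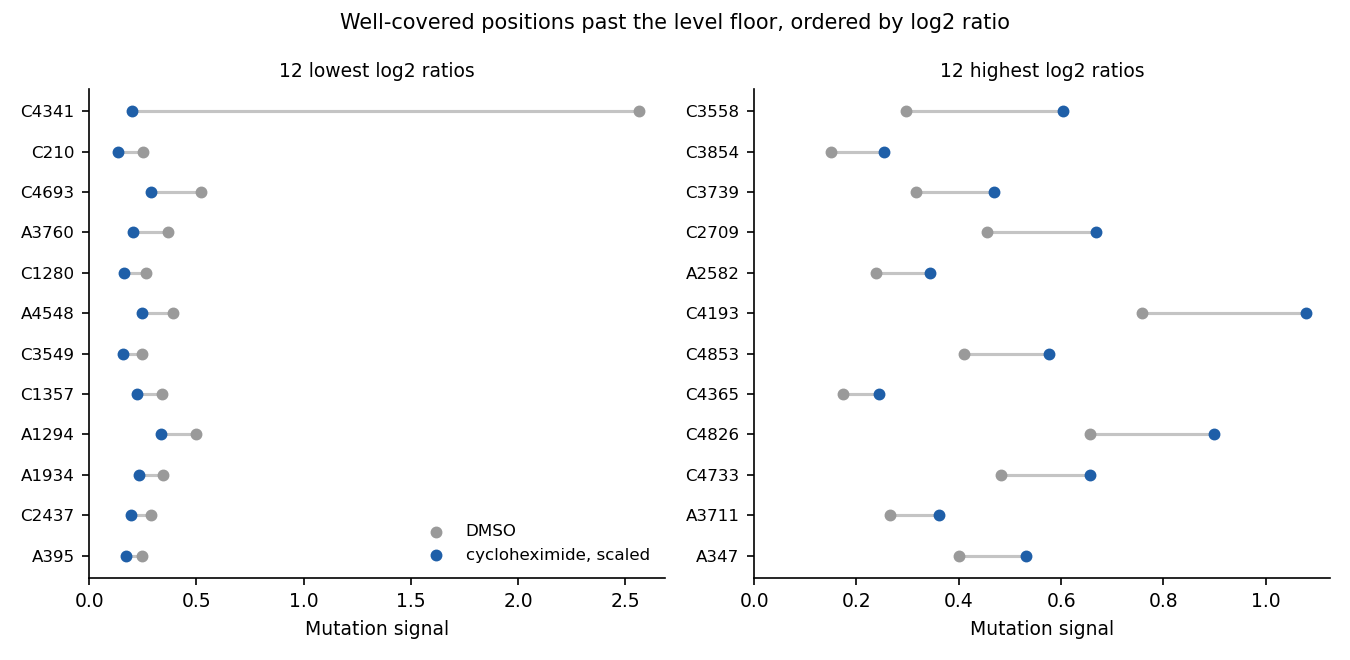
DMSO signal (grey) and scaled cycloheximide signal (blue) at the 12 well-covered positions past the floor with the lowest log2 ratio (left) and the 12 with the highest (right), 1 library each, with separate signal axes. The left axis is set by C4341, at 2.564 in DMSO; elsewhere the scaled difference is at most 0.233 in size on the left and 0.320 on the right.

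By stretch, all 9 medians lay close to equal signal. The medians below are over all A and C compared in a stretch, whether past the floor or not. In domain V, from 4101 to 4600, which holds the E site and the peptidyl transferase centre, the median log2 ratio of 231 positions was -0.04. Past the floor, the 54 positions of this stretch had a robust SD of 0.114, the smallest among well-covered positions of the 9 stretches. By this measure, C4341 stood apart in the stretch with the closest match between libraries. Over all its well-covered positions, past the floor or not, the quartiles were -0.23 and 0.11. Those from 1312 to 1850 were narrower, at -0.14 and 0.14. The median was -0.0004 from 1312 to 1850 (n = 272), -0.03 from 1851 to 2400 (n = 269), -0.03 from 2401 to 2880 (n = 217) and -0.03 from 3601 to 4100 (n = 247). At the 5′ end, from 1 to 435, it was -0.06 (n = 222), and from 4601 to 5070 it was 0.01 (n = 232). These 7 medians are smaller in size than the full shift of -0.08 made by the scaling. Without scaling, or with scaling by the 90th percentile, all 7 are above 0. In the other 2 stretches few positions were well-covered. Their well-covered median was -0.19 in the expansion segment 7 stretch (n = 25) and 0.18 in the expansion segment 27 stretch (n = 50), in opposite directions and larger than the scaling shift. The quartiles around these medians were wide and lay on both sides of 0, at -0.56 and 0.31 in the former and -0.32 and 0.63 in the latter. Over all positions compared, their medians were 0 (n = 332) and 0.05 (n = 178).

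Adenosines had a median log2 ratio of -0.05, and 42.7% of 768 lay above 0. Cytidines had a median of 0, and 49.5% of 1432 lay above 0. With no scaling both medians are above 0, at 0.03 and 0.07.

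**Figure D4:**
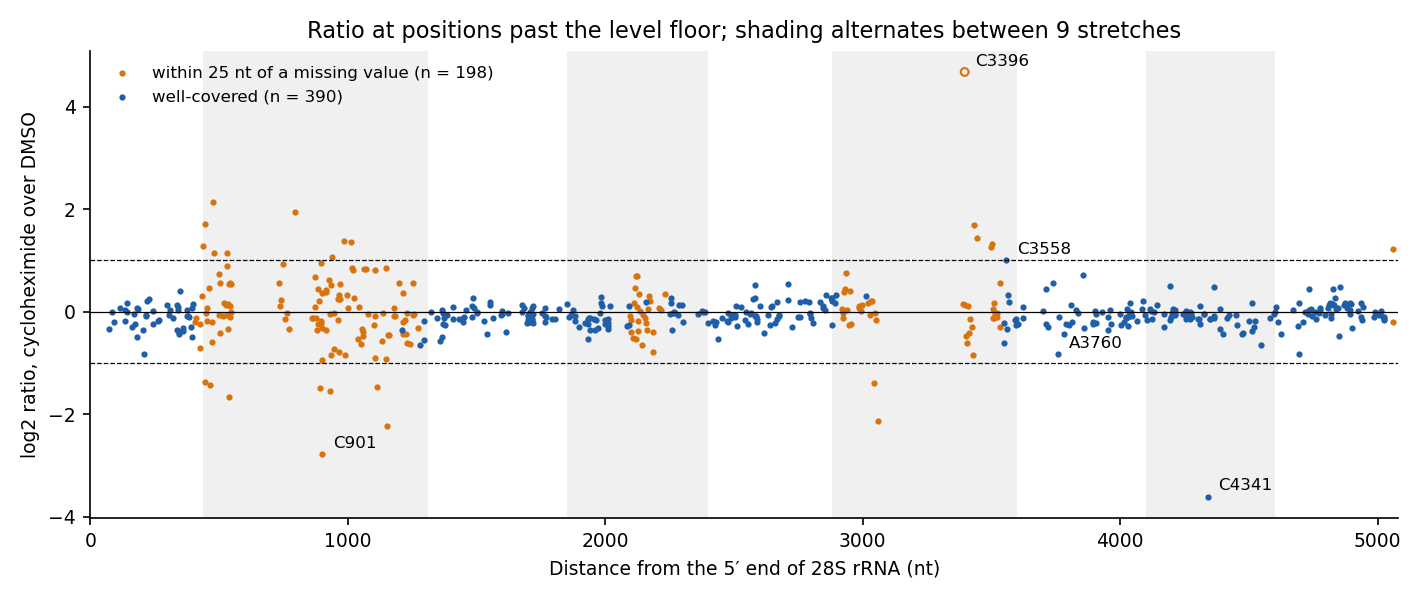
log2 ratio of cycloheximide over DMSO at the 588 positions past the floor, by distance from the 5′ end of 28S rRNA in nt, with well-covered positions in blue, those within 25 nt of a missing value in orange, the 9 stretches as alternating shading and 2-fold as dashed lines. C4341 is the lowest blue point at -3.61; the orange points outside 2-fold gather in the expansion segment 7 and 27 stretches, and the open circle at C3396 has a DMSO signal of 0, so its height depends on the pseudocount.

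Positions near missing values gathered in 2 stretches that hold expansion segments, the G- and C-rich insertions by which human rRNA is longer than that of bacteria. The stretch from 436 to 1311, around expansion segment 7, is 83.1% G plus C and held 307 of the 558 positions near a missing value. The stretch from 2881 to 3600, around expansion segment 27, is 86.7% G plus C and held 128. In the former 332 of 435 A and C were compared and in the latter 178 of 361. All A and C were compared from 1312 to 2880 and from 3601 to 4600. The longest run without values in either library spanned 3073 to 3378, with 146 A and C, and others spanned 560 to 628, 696 to 711 and 807 to 845. These runs are 87.2% to 88.4% G plus C. Short runs at the ends of the molecule, from 1 to 6 and from 5061 to 5070, are 83.3% and 50% G plus C.

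Of the 25 called positions near missing values, 24 lay in these stretches, and 22 were cytidines. Past the floor, 17 of 119 such positions were called in the former (14.3%) and 7 of 45 in the latter (15.6%). Elsewhere 0 of 27 were called from 1851 to 2400, 0 of 5 from 1 to 435 and 1 of 2 from 4601 to 5070. The 2 stretches held only 4 and 14 well-covered positions past the floor. Location and nearness to a missing value therefore cannot be told apart there. Over all stretches, ratios at the 198 positions near missing values past the floor were broader than at well-covered ones, with a robust SD of 0.483 and 48.5% within 1.25-fold. It was 0.597 in the expansion segment 7 stretch (n = 119) and 0.428 from 1851 to 2400 (n = 27). In the expansion segment 27 stretch it was 0.265 (n = 45), narrower than the 0.410 of the 14 well-covered positions there. Over the 198 positions, the spread was 0.541 for cytidines (n = 155) and 0.288 for adenosines (n = 43). As among well-covered positions it was narrower at higher signal, from 0.838 below 0.5 (n = 70) to 0.284 above 2 (n = 12). Exact zeros were also more frequent, at 76 of 558 positions in DMSO (13.6%) and 61 in cycloheximide (10.9%), against 3 of 1642 in each library among well-covered positions (0.183%). Whether low coverage accounts for the calls was not tested, since the files give no read counts.

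The missing values that define this class came mostly from RiboBright. Where a nearby A or C lacked a value in DMSO or cycloheximide, 9 of 52 positions past the floor were called (17.3%). Where the missing value was in RiboBright alone, 16 of 146 were called. Of the 27 called positions, 22 had no RiboBright value themselves. Uncalled positions of this class often lacked theirs too. Past the floor, the median distance to a missing value was 0 nt for the 25 called and for the 173 uncalled. At 0 nt the gap is the position's own RiboBright value, so such a gap is not taken as a trait of the calls. With missing values counted in DMSO and cycloheximide alone, 18 of 536 positions taken as well-covered were called (3.36%), so the small number of calls among well-covered positions rests on where the RiboBright library lacks values. The calls lay close to missing values. Up to 10 nt from one, 25 of 164 were called (15.2%), from 11 to 25 nt 0 of 34, from 26 to 50 nt 1 of 32 (C3558), from 51 to 100 nt 0 of 40, and beyond 100 nt 1 of 318 (C4341). The robust SD went from 0.534 to 0.365, 0.306, 0.225 and 0.166 over the same steps.

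The sequences around several of these calls are shown as examples of those that hold more than 1 call. In the upper 3 the calls have opposite directions, and in the lower 2 they are all higher. Other sequences with more than 1 call are not shown. In these, A893 and C901 were both lower, and so were C3045 and C3059. A466 was lower, while C477 and C480 in the same sequence were higher. Capitals mark the called positions.
426 to 457, C436, C446 and C447: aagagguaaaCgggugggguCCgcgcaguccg
521 to 547, C531 and C537: ccccguuccuCccgacCccuccacccg
921 to 948, C931 and C938: cccccggcagCagcacuCgccgaauccc
3421 to 3453, C3431 and C3443: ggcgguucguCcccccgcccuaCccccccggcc
3489 to 3512, C3499 and C3502: gcggcggcggCggCggcaggcggc

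The neighbours C446 and C447 were called in opposite directions. C446 had 0.295 in DMSO and 0.114 in cycloheximide (log2 ratio -1.37), and C447 had 0.148 and 0.535 (1.70). C436, 10 nt upstream of C446, had 0.203 and 0.535 (1.27). In the second sequence C531 was higher, at 0.198 and 0.477, and C537 lower, at 0.328 and 0.101 (-1.68). In the third C931 was lower, at 0.367 and 0.125, and C938 higher, at 0.147 and 0.336 (1.06), just inside the rule. Over all 25 calls, the other compared A and C within 5 nt shared the sign of the call in 66 of 128 cases (51.6%), where a neighbour of 2 calls counts for both. At least 1 of these neighbours was at 0 in DMSO or cycloheximide for 11 of the 25 calls. A neighbour at 0 in both has no sign and was counted as not sharing it, which lowers the share.

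The lower calls of this class had DMSO signals from 0.253 at C1151 to 0.620 at A893. C901 had the lowest ratio, with 0.433 in DMSO and 0.057 in cycloheximide (-2.79), and the smallest signal above 0 within 25 nt in cycloheximide was 0.028. C1151 had 0.253 and 0.048 (-2.24), with a smallest nearby signal of 0.032. C3059 had 0.287 and 0.061 (-2.13), with a smallest nearby signal of 0.051. The treated signal was 1.5 times the smallest one listed around it at C1151 and 1.20 times at C3059. A893 had 0.620 and 0.227, C3045 had 0.541 and 0.212, C1113 had 0.256 and 0.091, and A466 had 0.265 and 0.097, with log2 ratios from -1.49 at A893 to -1.39 at C3045. Positions just outside the rule included C900, at 0.481 and 0.258 (-0.95), beside C901.

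The higher calls had DMSO signals from 0 at C3396 to 0.254 at C3502. C3396 stood at 0.270 with cycloheximide but is listed at 0 with DMSO, which allows no fold. C477 had 0.056 and 0.298 (2.14), and C795 had 0.136 and 0.583 (1.94). C3431 had 0.137 and 0.492 (1.69), and C3443, in the same sequence, had 0.124 and 0.373 (1.43). The smallest DMSO signal above 0 within 25 nt of them was 0.061. C3499 had 0.241 and 0.622 and C3502 had 0.254 and 0.686, both in a repeat of CGG, with log2 ratios of 1.25 and 1.32. C984, A1012, C480 and C5059 were also higher, at 0.335, 0.271, 0.315 and 0.265 in cycloheximide against 0.116, 0.093, 0.129 and 0.101 in DMSO. C5059, near the 3′ end, was the 1 call of this class outside the expansion segment stretches.

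**Figure D5:**
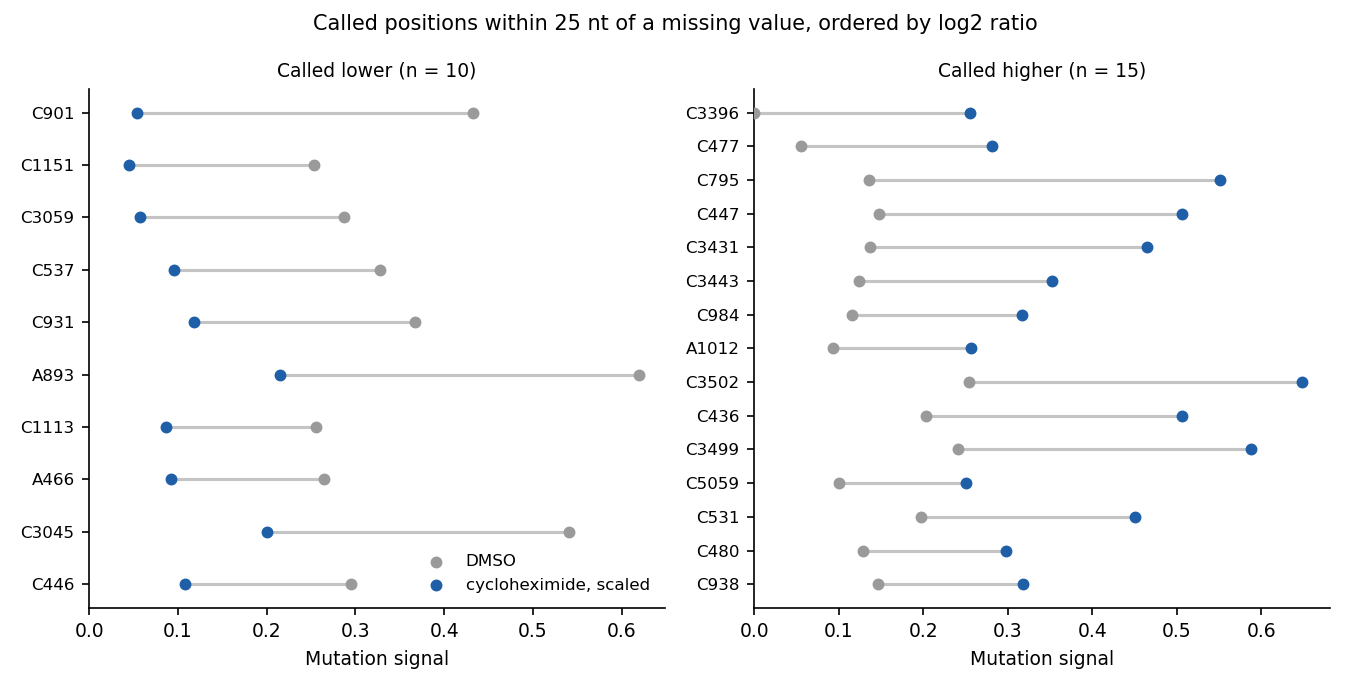
DMSO signal (grey) and scaled cycloheximide signal (blue) at the 10 called lower (left) and 15 called higher (right) positions within 25 nt of a missing value, ordered by log2 ratio, 1 library each. The highest DMSO signal is 0.620, at A893, and the highest scaled cycloheximide signal is 0.649, at C3502.

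Large signals near missing values differed by smaller ratios. C883 had 5.945 in DMSO against 8.541 in cycloheximide. Its log2 ratio was 0.44 and its scaled difference 2.13, next in size to that at C4341. C1039 had 2.574 and 1.863 (-0.54), C3406 had 2.046 and 1.411 (-0.61), and C2172 had 4.586 and 5.605 (0.21). C1039, C3406 and C2172 were chosen after their values were seen. None of the 29 positions of this class with a higher signal from 1 to 2, nor of the 12 above 2, was called.

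The called positions near missing values had the same median G plus C content in the 21 nt around them as the other 173 past the floor, 81.0% in each. Over 51 nt the medians were 80.4% for called positions and 84.3% for the others. By the base that follows, 9 of 59 positions before C were called (15.3%), 10 of 109 before G (9.17%), 3 of 16 before A and 3 of 14 before U. Among cytidines 22 of 155 were called (14.2%) and among adenosines 3 of 43 (6.98%). Where G plus C was below 70%, 4 of 14 were called (28.6%), and from 90% up 5 of 62 (8.06%). The shares differed most by DMSO signal, which is itself part of the call rule. From its lowest quartile up, 21 of 48 (43.8%), 2 of 51, 2 of 49 and 0 of 50 were called. These counts are small and were not tested.

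The positions listed in 1 library lay in 6 runs, all within the expansion segment 7 and 27 stretches. Those listed in cycloheximide alone were 58 cytidines and 6 adenosines, with 38 from 640 to 724, 13 from 3470 to 3493, 7 from 3063 to 3071 and 6 from 552 to 559. Of these 64, 13 were at 0 and 15 passed the floor after scaling, the highest being C640 at 1.104. Those listed in DMSO alone were 17 from 2955 to 2977 and 3 from 850 to 856. Of these 20, 10 were at 0, and 3 passed the floor, A2974 at 0.742, A2955 at 0.437 and C856 at 0.249. No comparison can be made at these positions.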

How the data were processed

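Mutation signals of 28S rRNA were taken as deposited, as a signal per nucleotide at A and C, with no replicate per treatment. The submitters' processing notes name Bowtie2, cutadapt and the build hg38. For the mutation counter, coverage minimum, background subtraction and dimethyl sulfate dose: not given in the sources used here. In each library and base, the mean of the highest 2 to 10% of values was near 1 (0.987 to 0.995). With values on such a scale, a change shared by all positions would not show. Depth is unknown and no counting interval is given. Each library's own file held the same 5070 values as the joint table.

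Scaling, ratios, the call rule and the classes are as given in the results, computed with Python 3.11.15, numpy 2.4.6 and pandas 2.3.3. The calculation was tested on simulated data. An exact 0 was kept as a value. Named positions are every called position, the 12 lowest and 12 highest well-covered log2 ratios past the floor, the 10 highest DMSO signals, functional sites and E-site neighbours. Members, regions and lists were chosen with earlier results of these data known.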

Additional observations from a re-analysis of the deposited data

How the results depend on the processing

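Across 14 alternatives, scaling, base-wise scaling and removal of zeros moved no count of calls by over 1.5 times. With the floor at the DMSO median, 92 positions were called, 15 well-covered and 77 near missing values. With the floor at the 90th percentile, 1 was called, C4341, and 0 near missing values. At 1.5-fold 65 were called, 9 and 56, and at 3-fold 10, 1 and 9, in the same order. Well-covered calls went from 2 to 1 with a pseudocount of 20% of the DMSO median, where C3558 lost its call, and to 1 with 50 nt to a missing value, where C3558 moved to the other class and 27 were still called in all. They went to 18 with 9 near missing values where missing values in RiboBright were ignored. The causes were not tested beyond what each setting itself changes. The log2 ratio at C4341 kept its call in all 14. The spread of well-covered ratios ran from 0.135 to 0.256. For 48 named positions, 671 values were computed, of which 44 lost a call, 7 gained one and 0 changed sign. No paired analysis was possible because each treatment has 1 library. With scaling changed at 1.5-fold, chosen after seeing the data, 8 to 10 well-covered positions were called, and the share that was higher went from 22.2% to 55.6% without scaling and to 6 of 10 by the 90th percentile. Depth limits the statements near missing values by an unknown amount, since no coverage was analysed here.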
